A study of Arabidopsis thaliana with 16 samples.

Results

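Leucine-rich repeat receptor kinases are the largest group of plant receptor kinases. An extracellular domain of leucine-rich repeats binds a peptide or another ligand, or a partner receptor, and an intracellular kinase domain passes the signal on. Some perceive microbial patterns such as flagellin, some are coreceptors or regulators of those receptors, and others read the plant's own growth and developmental peptides. WRKY transcription factors bind short DNA motifs in the promoters of many defence genes, and WRKY18, WRKY33 and WRKY40 are known regulators of plant immunity.

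The peaks of 44 leucine-rich repeat kinase genes were followed across the ChIP-seq peak lists of WRKY33, WRKY18 and WRKY40. These were the genes assigned to a peak in any of the 12 lists whose deposited description named both leucine-rich repeats and a kinase. The lists named 4317 genes in all. A further 4 genes met that wording but were excluded by the rule for membership and are not analysed here. The 44 genes held 199 of the 16600 peaks. Membership did not use line, time or peak score, but a gene had to have a peak somewhere to be a member, so genes of this kind with no peak in any list are not members.

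ChIP-seq measures DNA occupancy by immunoprecipitating crosslinked chromatin and sequencing it. Arabidopsis thaliana seedlings were grown in long days (16 h light, 8 h dark). At an age of 12 days they were put in medium with 1 µM flg22 for 2 h or were untreated (0 h). The flg22 peptide is a stretch of bacterial flagellin that Arabidopsis recognises. A rabbit polyclonal anti-HA antibody was used on 2 g of seedlings, and the DNA was amplified in 2 linear rounds and sequenced to 7 to 20 M reads of 100 bp.

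The groups were WRKY33-HA, WRKY18-HA and WRKY40-HA complementation lines in the Col-0 background and untagged Col-0 wild type (WT), each at 2 h with flg22 and at 0 h untreated, with 2 biological replicates. The promoter of the tagged transgenes and the number of independent lines per factor are not stated in the labels. Whole seedlings were used, so binding in different tissues cannot be told apart. No seedlings were kept for 2 h without flg22, so an effect of the peptide and one of time or of changing the medium cannot be told apart. The 4 WT samples served as controls for peak calling, each for the 3 tagged lines of its time and replicate. Lists of 1 replicate and time therefore shared a control, and the 2 h and 0 h lists were called against different ones.

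The lists at 2 h held 1653 to 3272 peaks. At 0 h WRKY18-HA had 260 and 1843 peaks in replicates 1 and 2, which is a wide gap between replicates, and the other lines had 9 to 44. Every list starts at a peak score near 9.999, the lowest of all, on a scale the files do not state, and 0 to 276 peak numbers are absent per list. A gene missing from a list is therefore not shown to be unbound. Read totals per library are unknown, and depth was read from the tags per peak: member peaks at 2 h had a median of 280 and 270.5 tags in WRKY33-HA, 784.5 and 731 in WRKY18-HA, and 825 and 527 in WRKY40-HA. No member peak held more than 61 tags of the WT control.

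Flg22-treated seedlings had far more leucine-rich repeat kinase genes in their lists than untreated ones. At 2 h, 22 and 27 member genes had a peak in the replicates of WRKY33-HA, 24 and 28 in WRKY18-HA, and 17 and 32 in WRKY40-HA. At 0 h the WRKY33-HA and WRKY40-HA lists held no member, and those of WRKY18-HA held 5 and 14. In each line both 2 h lists had more members than both 0 h lists. The mean of log2(number of member genes + 1) was higher by 3.59 at 2 h, and the two-sided exact permutation test within lines gave p = 0.00926, the smallest value its 216 arrangements allow. With the replicate block the smallest possible p, 0.0312, was reached. The lists as a whole were longer at 2 h too, with 1532 to 2770 genes of any kind per list, against 9 to 1656 at 0 h. Every member had a 2 h peak and membership required a peak, so the test cannot separate a gain at members from longer lists. As a share of listed genes, members made up 1.96% and 0.845% in WRKY18-HA at 0 h, beside 1.50% and 1.10% at 2 h.

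**Figure D1:**
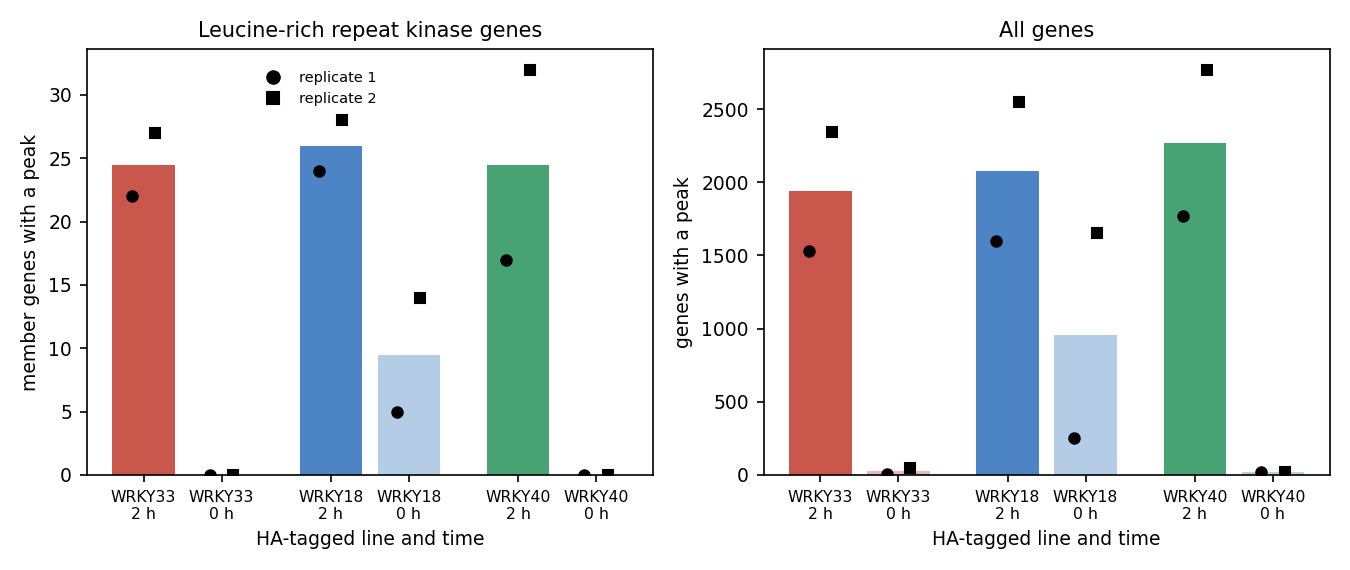
Number of leucine-rich repeat kinase genes (left) and of all genes (right) with a peak in each list. Bars are means of 2 replicates, circles are replicate 1, squares are replicate 2, and both vertical axes start at 0. Member genes number 17 to 32 per list at 2 h, and only WRKY18-HA lists hold any at 0 h (5 and 14).

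Members made up a like share of the genes listed for each factor at 2 h. The share was 1.44% and 1.15% in WRKY33-HA, 1.50% and 1.10% in WRKY18-HA, and 0.961% and 1.16% in WRKY40-HA. The WRKY33-HA values lay within the range of the other lines. Means were 1.29% in WRKY33-HA and 1.18% over WRKY18-HA and WRKY40-HA, and the difference of 0.114 percentage points did not pass the two-sided exact permutation test (p = 0.733). With 15 arrangements that test cannot go below 0.0667.

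A gene was called reproducible when peaks of both replicates overlapped by at least 1 bp and either was assigned to it. At 2 h this held for 18 members in WRKY33-HA (40.9%), beside 27.6% of all genes in the lists. In WRKY18-HA it held for 20 members (45.5%), beside 31.6% of all genes, and in WRKY40-HA for 17 (38.6%), beside 36.0%. At 0 h it held for 4 members in WRKY18-HA (9.09%), beside 5.1% of all genes, and for none in the other lines, where 0.0695% (WRKY33-HA) and 0.0463% (WRKY40-HA) of all genes were reproducible. These shares are descriptions, since the lines share controls and the members are not replicates.

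Between them, the 3 lines had 27 reproducible members at 2 h (61.4%), beside 51.1% of all genes. All 3 lines had 10 of them, or 22.7% of the members, beside 13.7% of all genes. WRKY18-HA and WRKY40-HA had 6 more together, WRKY33-HA had 6 alone, WRKY33-HA and WRKY18-HA had 2, WRKY18-HA had 2 alone and WRKY40-HA had 1 alone. A gene counted for 1 line alone could still have a peak in a single list of another, as several did.

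**Figure D2:**
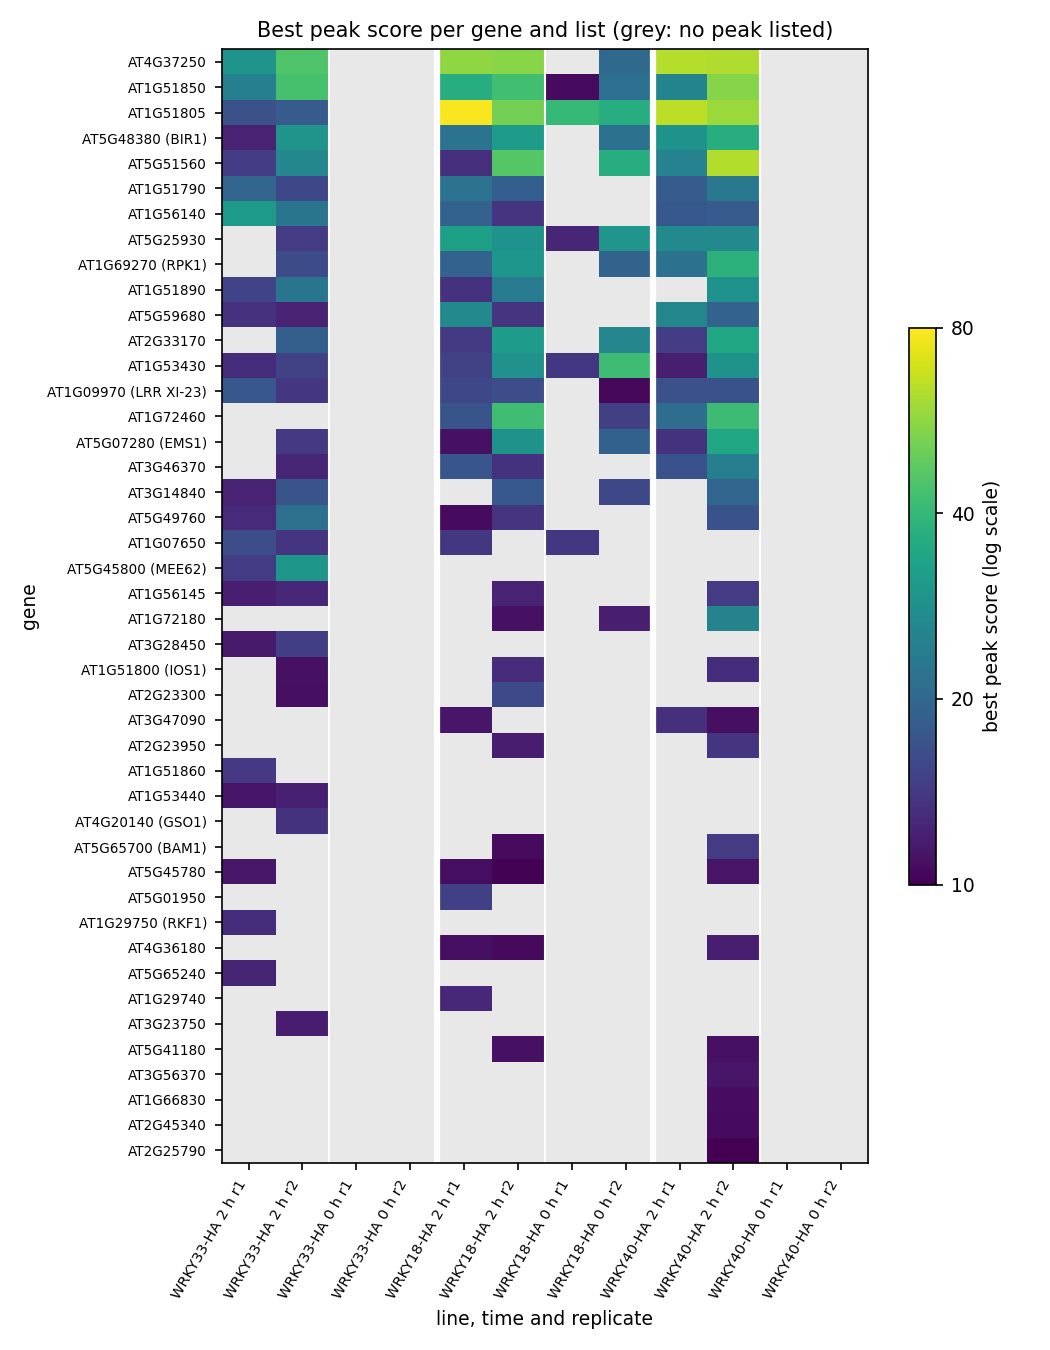
Best peak score of each of the 44 genes (rows) in each of the 12 lists (columns), on a log colour scale, with grey for no listed peak. The scores run between 10.02 and 78.5, the WRKY33-HA and WRKY40-HA columns at 0 h are empty, and the rows, ordered by mean rank at 2 h, are led by AT4G37250, AT1G51850 and AT1G51805.

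The highest single score of any member, 78.5, lay at AT1G51805, a receptor-like kinase gene of chromosome 1. It led the members in replicate 1 of WRKY18-HA and of WRKY40-HA, and other members scored higher in the other 2 h lists. Its peak spanned chr1:19225458-19226565 in TAIR10 at 2 h, upstream of the start at -327 to -194 bp. The scores were 16.7 and 18.1 in WRKY33-HA, 78.5 and 51.9 in WRKY18-HA and 65.0 and 58.6 in WRKY40-HA. Both WRKY33-HA values lay below all 4 values of the other lines. In tags, the peak held 376 and 352 in WRKY33-HA, 3663 and 3290 in WRKY18-HA and 2715 and 3374 in WRKY40-HA, against 7 to 21 in WT. WRKY33-HA lists had fewer tags per peak over all genes as well, with medians of 282 and 222 beside 570 to 678 in the other lines.

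AT1G51805 lies in a run of related kinase genes, AT1G51790 to AT1G51890, in which 6 of 13 protein-coding loci were members. Related neighbours can share sequence, and the labels do not say how reads matching several places were treated. AT1G51850 had its peak at chr1:19256443-19257616, -439 to -231 bp from the start, with scores of 24.6 and 43.6 in WRKY33-HA, 36.5 and 42.7 in WRKY18-HA, and 25.6 and 54.6 in WRKY40-HA. Here the lines overlapped. AT1G51790 had an intronic peak at 413 to 475 bp after its start that all 6 lists shared, scored 19.8 and 15.7 in WRKY33-HA, 22.0 and 18.6 in WRKY18-HA, and 18.3 and 23.1 in WRKY40-HA. A further AT1G51790 peak, upstream at -924 to -557 bp, was in 5 lists and missing from replicate 2 of WRKY33-HA.

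The run held 3 other members. AT1G51890 scored 15.4 and 22.5 in WRKY33-HA and 13.5 and 23.8 in WRKY18-HA, and had a peak of 29.0 in replicate 2 of WRKY40-HA but none in replicate 1. IOS1 (AT1G51800), a malectin-like receptor kinase known to associate with pattern receptors and the coreceptor BAK1, had peaks in replicate 2 alone, of 10.9 in WRKY33-HA, 13.0 in WRKY18-HA and 13.1 in WRKY40-HA. AT1G51860 had 1 peak, of 14.1 in replicate 1 of WRKY33-HA.

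AT4G37250, described as a leucine-rich repeat kinase, carried a strong site far upstream, at chr4:17533503-17534546. Its distance was -3613 to -3480 bp, in a stretch the authors annotated as intergenic. The scores were 29.2 and 45.2 in WRKY33-HA, 56.8 and 55.4 in WRKY18-HA, and 63.3 and 62.6 in WRKY40-HA. The WRKY33-HA scores were below the others, but the WRKY33-HA lists as a whole also ranged lower, with a top score of 72.3 and 97.1 against 193 to 262. By rank within each list, the site came at a mean of 3.23% from the top in WRKY33-HA and 3.28% in WRKY18-HA. Assignment to a gene this far away rests on nearness alone.

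Among regulators of immune receptors, BIR1 (AT5G48380), a BAK1-interacting kinase known to hold back cell death and defence, was reproducible in all 3 lines. Its peak lay across the start, between -55 and 74 bp, at chr5:19606590-19607448. It scored 12.2 and 29.4 in WRKY33-HA, 22.1 and 31.3 in WRKY18-HA, and 28.8 and 36.5 in WRKY40-HA. Replicate 2 was higher in each line, and the lines overlapped. Its relative BIR2 (AT3G28450), which keeps BAK1 away from the flagellin receptor, had peaks in WRKY33-HA alone, of 11.6 and 14.7 at -127 to -86 bp. These are low scores near the lower limit of the lists.

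RLK7 (AT1G09970), known as the receptor of a peptide that amplifies immune signalling, was reproducible in all 3 lines, though not always by the same site. In WRKY33-HA the reproducible site lay 3502 to 3656 bp after the start, at the end of the neighbouring gene AT1G09980, with scores of 17.6 and 13.8. In WRKY18-HA it lay at -2237 to -2200 bp, with 15.7 and 11.2. WRKY40-HA had that upstream site as well, with 16.8 and 13.7, and another further out at -3063 to -2984 bp, with 12.0 and 16.9. Single lists of the other lines shared these sites. WRKY33-HA had 12.5 in replicate 1 at the nearer upstream site and 13.9 in replicate 2 at the further one. WRKY18-HA had 13.8 in replicate 2 at the further one. The site after the start scored 13.2 in replicate 2 of WRKY40-HA. LIK1 (AT3G14840), which interacts with the chitin receptor kinase CERK1, was reproducible in WRKY33-HA by a site 727 to 763 bp after its start that scored 12.2 and 15.3. In WRKY18-HA and WRKY40-HA it had 2 h peaks in replicate 2 alone, at other positions that replicate 2 of WRKY33-HA shared. At -1588 to -1570 bp the scores were 17.1 in WRKY33-HA, 17.7 in WRKY18-HA and 19.7 in WRKY40-HA. Nearer the start, at -151 to -115 bp, they were 11.4, 13.6 and 11.9. BARK1 (AT3G23750), which binds BAK1, had 1 peak, of 11.8 in replicate 2 of WRKY33-HA. It is also called TMK4 and is counted below among the growth and development receptors.

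Members with known roles in growth and development included RPK1 and EMS1. RPK1 (AT1G69270), which acts in abscisic acid signalling and embryo patterning, scored 19.3 and 29.9 in WRKY18-HA and 21.8 and 38.0 in WRKY40-HA. WRKY33-HA had a peak there in replicate 2 alone, of 16.1. EMS1 (AT5G07280), known for specifying tapetal cells in the anther, scored 11.0 and 29.0 in WRKY18-HA and 13.6 and 34.7 in WRKY40-HA, and 14.1 in replicate 2 of WRKY33-HA. The EMS1 peak lay at -1409 to -1318 bp, at the annotated end of the upstream gene AT5G07270.

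WRKY18-HA and WRKY40-HA shared further members. AT5G25930 scored 32.6 and 28.9 in WRKY18-HA and 26.9 and 26.7 in WRKY40-HA, with 14.4 in replicate 2 of WRKY33-HA. AT2G33170 scored 14.2 and 31.4 in WRKY18-HA and 14.6 and 34.4 in WRKY40-HA, with 18.8 in replicate 2 of WRKY33-HA. At both genes WRKY33-HA replicate 1, whose list is the shortest at 2 h, had no peak. AT3G46370 had a site at -2706 to -2647 bp that was in no WRKY33-HA list, with 17.5 and 11.6 in WRKY18-HA and 16.9 and 14.7 in WRKY40-HA. A nearer AT3G46370 site, at -413 to -381 bp, scored 14.9 and 24.3 in WRKY40-HA and was in replicate 2 alone of WRKY33-HA (12.5) and WRKY18-HA (13.6).

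AT1G72460 shows how the assignment of genes enters these counts. WRKY18-HA and WRKY40-HA peaks at chr1:27277121-27278776 were assigned to it at -1573 to -1556 bp, with 17.2 and 42.2 in WRKY18-HA and 21.0 and 41.6 in WRKY40-HA. The same merged site had a peak in both WRKY33-HA lists, of 26.1 and 55.7, assigned to the neighbour AT1G72450. WRKY33-HA was thus not absent from the site, though the gene is not counted for that line.

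Of the 6 members reproducible in WRKY33-HA alone, 3 had no peak in any list of another line. MEE62 (AT5G45800), a gene whose mutant arrests embryo development, had the strongest, with 14.4 and 30.0 at -2142 to -2124 bp (chr5:18580931-18581568). BIR2 was another, and AT1G53440 the third, with 11.3 and 12.0 in an intron. AT1G07650 scored 16.3 and 13.7 in WRKY33-HA but also had peaks of 14.0 in replicate 1 of WRKY18-HA at both times. AT1G56145 scored 11.9 and 12.6 in WRKY33-HA, and in replicate 2 it had 12.2 in WRKY18-HA and 14.4 in WRKY40-HA. Whether these genes differ between lines was not tested, because a peak missing from a list has no value.

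AT1G56140, in contrast, had a peak in all 6 lists and its highest scores in WRKY33-HA. It lies next to AT1G56145, and its peak was at chr1:21007681-21008459, -316 to -239 bp from the start. The scores were 31.2 and 22.5 in WRKY33-HA, 19.2 and 13.8 in WRKY18-HA and 17.7 and 18.2 in WRKY40-HA. Both WRKY33-HA values lay above all 4 others. Another intragenic site was that of AT5G51560, about 900 bp into the gene in an intron, with 14.6 and 26.3 in WRKY33-HA, 13.4 and 46.1 in WRKY18-HA, and 25.2 and 63.1 in WRKY40-HA. Replicate 2 of AT5G51560 was higher in each line, and the lines overlapped. AT5G59680 scored 13.4 and 12.3 in WRKY33-HA, 26.5 and 13.6 in WRKY18-HA, and 26.0 and 19.2 in WRKY40-HA.

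AT1G53430 was reproducible in all 3 lines, with 13.1 and 15.1 in WRKY33-HA, 15.0 and 28.7 in WRKY18-HA, and 11.9 and 29.1 in WRKY40-HA. Replicate 2 was higher in each line, and the lines overlapped. AT5G49760 scored 12.9 and 21.5 in WRKY33-HA and 10.6 and 13.6 in WRKY18-HA, with 16.8 in replicate 2 of WRKY40-HA. AT4G36180 was reproducible in WRKY18-HA with 10.8 and 10.5, at a site 3816 to 3939 bp after its start. AT5G45780 was reproducible in WRKY18-HA with 10.8 and 10.1, and AT3G47090 in WRKY40-HA with 13.3 and 10.9. The AT3G47090 peaks, at -209 to -179 bp, were annotated as promoter of the neighbour AT3G47100.

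The other 17 members were reproducible in no line at 2 h. They held 24 peaks at that time, 19 of them in replicate 2 lists, with a median score of 12.1 and a highest score of 25.4. That highest one belonged to CEPR2 (AT1G72180), a receptor of C-terminally encoded peptides, in WRKY40-HA. BAM1 (AT5G65700), a relative of the meristem receptor CLAVATA1, had 10.6 in WRKY18-HA and 14.5 in WRKY40-HA, both in replicate 2. GSO1 (AT4G20140), which acts in forming the root's diffusion barrier and the embryo's cuticle, had 13.5 in replicate 2 of WRKY33-HA. RKF1 (AT1G29750), a receptor kinase found in flowers, had 13.1 in replicate 1 of WRKY33-HA. AT1G29740, AT1G66830, AT2G23300, AT2G23950, AT2G25790, AT2G45340, AT3G56370, AT5G01950, AT5G41180 and AT5G65240 had scores of 10.02 to 15.8. Of the 17, 11 had a 2 h peak in a single list, 5 in 2 lists, and IOS1 in 3.

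Relative peak scores were compared at sites with a peak in all 6 lists at 2 h, of which there were 587 and 10 lay at members. Each log2 score was set against the median of its list over those sites, since the lists had different score ranges. In the limma fit, with Benjamini-Hochberg adjustment over all sites and a threshold of 0.05, WRKY33-HA over WRKY18-HA called 37 sites (6.3%) and WRKY33-HA over WRKY40-HA 47 (8.01%). None of the member sites was among them, and 2 had an unadjusted p under 0.05 in each contrast. Same-numbered libraries shared a control and deviated together, and with that replicate block limma called 245 sites (41.7%) and 244 (41.6%), 3 of them at members in each contrast.

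AT1G51805 was the member site with the largest difference. Its log2 difference was -1.46 in WRKY33-HA over WRKY18-HA (SE 0.38), a ratio of 0.363, with an adjusted limma p of 0.0524 that became 0.00177 with the replicate block. Over WRKY40-HA it was -1.26 (SE 0.38), with adjusted p values of 0.0718 and, with the block, 0.00327. In both WRKY33-HA lists it was thus lower than in the other lines, by a difference that passed the limma threshold with the block but not without it.

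AT1G56140 stood on the other side, with higher relative scores in WRKY33-HA. Its log2 difference was 1.11 in WRKY33-HA over WRKY18-HA (SE 0.39) and 1.12 over WRKY40-HA (SE 0.39), ratios of 2.17 and 2.18. The adjusted limma p values were 0.0973 and 0.100, and 0.00254 and 0.00287 with the replicate block. The site shared by AT1G72460 and AT1G72450 had a difference of 0.91 in WRKY33-HA over WRKY18-HA and 0.93 over WRKY40-HA (SE 0.44 each), which passed with the block alone (adjusted p = 0.0106 and adjusted p = 0.00907 in limma, beside 0.204 and 0.201 without it). The median over the 10 member sites was 0.00 and -0.02 in these contrasts, beside 0.06 and 0.04 over all 587 sites.

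**Figure D3:**
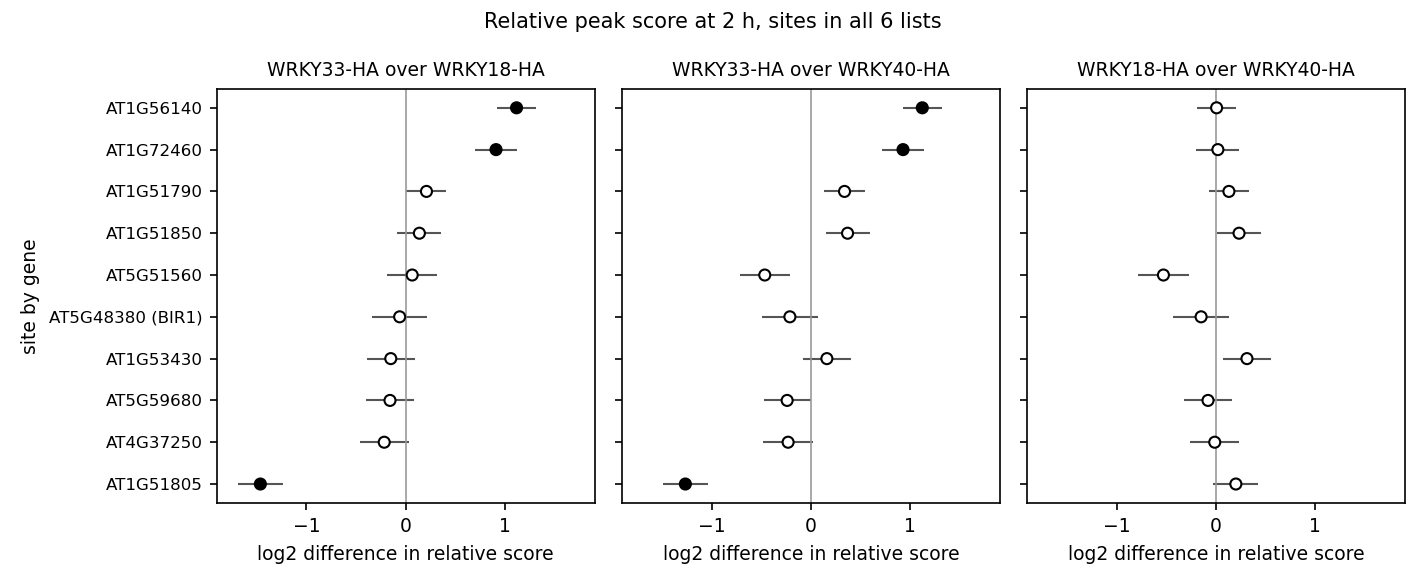
Log2 difference in relative peak score between lines at the 10 member sites with a peak in all 6 lists at 2 h. Points are estimates and horizontal lines their standard errors, both from the limma fit with the replicate block, and filled points have an adjusted p under 0.05. AT1G51805 lies at -1.46 and -1.26 and AT1G56140 at 1.11 and 1.12 in the WRKY33-HA contrasts, and no point is filled for WRKY18-HA over WRKY40-HA.

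No site passed the threshold between WRKY18-HA and WRKY40-HA. The limma fit called 0 of 587 sites (0.0%), with 5 at an unadjusted p under 0.05, none of them at a member, and 0 with the replicate block (24 unadjusted) or with tag fold enrichment in place of the score (4 unadjusted). The member differences ran from -0.53 at AT5G51560 to 0.31 at AT1G53430. The SE was 0.53 at AT5G51560 and 0.37 at AT1G53430, and 0.25 and 0.24 with the replicate block, where the adjusted limma p was 0.947 for both. AT5G51560 was lower in WRKY18-HA than in WRKY40-HA in both replicates by score. The lists of different replicates, which share no control, held many of the same members: of the 24 members of WRKY18-HA replicate 1, 21 (87.5%) were in WRKY40-HA replicate 2, which is 65.6% of that list's 32. For all genes these shares were 86.2% and 49.7%. For WRKY33-HA replicate 1 and WRKY18-HA replicate 2, 15 members were shared, 68.2% of the first list and 53.6% of the second, beside 66.7% and 40.1% of all genes.

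At 0 h only WRKY18-HA had member peaks, and 4 members were reproducible. AT1G51805 had scores of 78.5 and 51.9 at 2 h, against 40.2 and 36.7 at 0 h. AT1G51850 had 36.5 and 42.7 at 2 h, against 10.6 and 21.3 at 0 h. For both genes the 2 h scores were above the 0 h scores in each replicate. Scores rose in general too, by a median log2 difference of 0.73 over the 195 sites in all 4 WRKY18-HA lists. AT5G25930 had 32.6 and 28.9 at 2 h, against 12.5 and 29.5 at 0 h, and AT1G53430 had 15.0 and 28.7 at 2 h, against 14.0 and 42.0 at 0 h. For these genes the times overlapped. The 2 h site shared by AT1G72460 and AT1G72450 also overlapped WRKY18-HA 0 h peaks in both replicates, of 11.7 and 44.5. AT1G72460 is not counted as reproducible at 0 h. The 0 h peak assigned to it, of 14.8, was in replicate 2 alone.

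Most other 0 h members came from the longer replicate 2 list. Of the 21 reproducible 2 h sites of WRKY18-HA at members, 11 (52.4%) overlapped a 0 h peak, beside 917 of 1450 sites (63.2%) over all genes, and all 11 did so in replicate 2 and 5 in replicate 1. None of the 19 member sites of WRKY33-HA and none of the 20 of WRKY40-HA overlapped a 0 h peak of their line, where 1.29% and 0.905% of all sites did. Among the members with a 0 h peak in replicate 2 alone were AT5G51560 (36.7), AT2G33170 (25.7), BIR1 (21.8), AT4G37250 (20.5), RPK1 (19.4) and EMS1 (19.1). AT1G51790, AT1G56140 and AT5G59680 had no 0 h peak in either WRKY18-HA list.

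In relative score, limma called 0 of the 195 sites in all 4 WRKY18-HA lists (0.0%) between 2 h and 0 h, with 19 at an unadjusted p under 0.05, and 0 with tag fold enrichment (26 unadjusted). With the replicate block it called 53 (27.2%), 1 of them among the 5 member sites. That site was AT1G53430, with a log2 difference in relative score of -1.03 (SE 0.44), an adjusted limma p of 0.404, and 0.00305 with the block. Without centring, the median over the 195 sites was 0.73 higher at 2 h, so these values are relative to a general gain in score. AT1G53430, whose peak lay 542 to 851 bp after its start, was thus lower relative to the other WRKY18-HA sites at 2 h in the fit with the block. AT1G51850 differed by 0.58 (SE 0.37, adjusted p = 0.547 in limma).

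At 2 h, 52.0% of the 179 member peaks were annotated as promoter, beside 54.5% of the 14393 peaks of all genes. Another 25.7% were intergenic, beside 21.8%, and 8.94% were at the end of a transcript, beside 16.9%. Introns held 12.3% of member peaks, beside 4.97% of all peaks, and these came from AT1G07650, AT1G51790, AT1G53430, AT1G53440 and AT5G51560. Peaks of the same site recur across lists, so the intronic share rests on 5 genes. The median distance was -395 bp for member peaks and -340 bp for all.

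**Figure D4:**
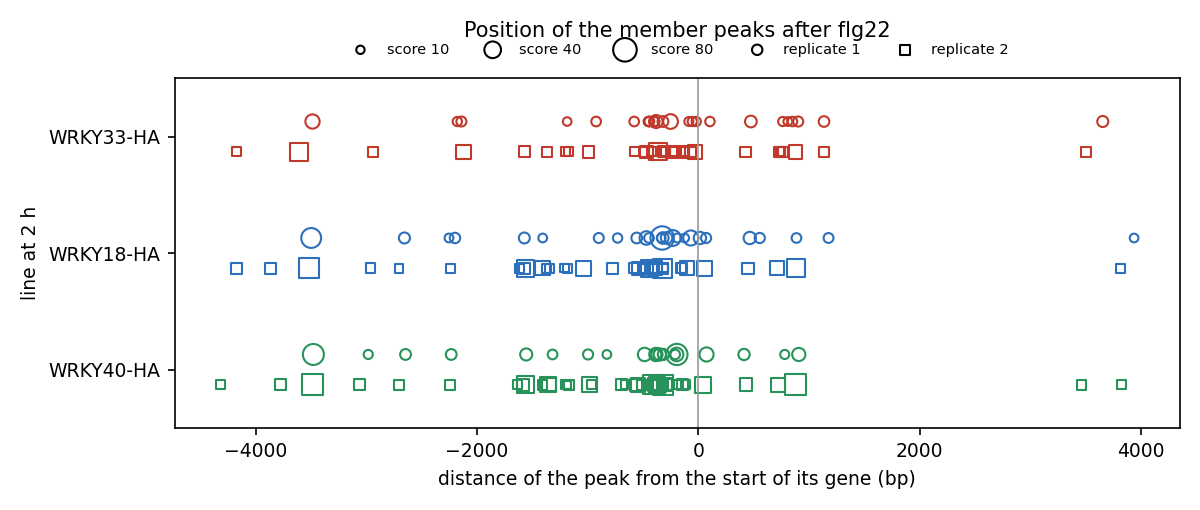
Distance of each member peak at 2 h from the start of its assigned gene in bp, by line, with circles for replicate 1, squares for replicate 2 and symbol area proportional to the peak score. Over the 3 lines, 49.2% of the symbols lie within 1000 bp upstream of the start, and the large ones near -3500 bp are the AT4G37250 site.

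Wider lists written from general knowledge put the members beside their relatives, peak or no peak. Of 17 genes grouped loosely as BAK1 partners and coreceptors, 7 had a peak in some list. The group includes LIK1, described above by its link to CERK1. At 2 h 5 were reproducible in WRKY33-HA (BIR1, BIR2, LIK1, RLK7 and AT5G49760), 3 in WRKY18-HA and 2 in WRKY40-HA. These stand beside 3.1%, 3.54% and 4.04% of all annotated loci. The 37899 loci are those of chromosomes 1 to 5 and were not limited to protein-coding genes. Of 13 genes listed as subfamily VIII-2, 8 had a peak, and 6 were reproducible in WRKY33-HA, 2 in WRKY18-HA and 2 in WRKY40-HA. This group holds AT1G56140, AT1G56145, AT1G53430, AT1G53440, AT1G07650 and LIK1, which is counted in both lists. Of 42 malectin-like kinases, 8 had a peak, and 5, 6 and 5 were reproducible in WRKY33-HA, WRKY18-HA and WRKY40-HA. Of 5 subfamily XII genes besides the pattern receptors, AT3G47090 alone was listed.

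Of 39 growth and development receptors, 14 had a peak, and 1 was reproducible at 2 h in WRKY33-HA, 5 in WRKY18-HA and 5 in WRKY40-HA, beside 3.1%, 3.54% and 4.04% of all annotated loci. Whether the counts differ between lines was not tested. Relatives outside the 44 genes included TMK1 (AT1G66150), a kinase in auxin signalling, with best scores at 2 h of 14.7 and 59.6 in WRKY18-HA and 14.1 and 50.8 in WRKY40-HA. TMK1 also had 10.3 in replicate 2 of WRKY33-HA at 2 h. At 0 h TMK1 had a higher score of 90.2 in replicate 2 of WRKY18-HA, and 12.9 in replicate 2 of WRKY40-HA. HAE (AT4G28490), which acts in floral organ abscission, scored 16.9 and 19.1 in WRKY18-HA and 18.8 and 22.3 in WRKY40-HA at 2 h. HAE also had 14.4 in replicate 1 of WRKY33-HA at 2 h and 13.3 in replicate 2 of WRKY18-HA at 0 h. PSKR1 (AT2G02220), a phytosulfokine receptor, was the list's reproducible gene in WRKY33-HA. Its best WRKY33-HA peaks scored 18.7 and 40.6, at -1994 and -502 bp. In replicate 2 alone PSKR1 also had 36.0 in WRKY18-HA and 46.7 in WRKY40-HA at 2 h, and 33.5 in WRKY18-HA at 0 h.

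Receptor-like cytoplasmic kinases act directly below these receptors, and 12 of 18 had a peak. At 2 h 2 were reproducible in WRKY33-HA, 7 in WRKY18-HA and 8 in WRKY40-HA, beside the same 3.1%, 3.54% and 4.04% of loci. BIK1 (AT2G39660), the kinase that links pattern receptors to the oxidative burst, scored 18.4 and 33.6 in WRKY18-HA and 19.5 and 47.1 in WRKY40-HA. No WRKY33-HA peak was assigned to BIK1, and peaks assigned to its neighbours were not looked for. The kinase gene AT3G09830 was reproducible in all 3 lines, and its best WRKY33-HA peaks scored 19.5 and 25.5 at -95 and -75 bp. These lists are small and were put together with results of these data known, so their counts are descriptions.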

How the data were processed

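Of the 16 samples, the 12 HA libraries have a peak list each and were grouped by line and time from the labels. The 4 WT samples were used by the authors as controls. The submitters' processing notes name the build TAIR10 and the tools HOMER, Bowtie 0.12.7, cutadapt 1.2.1 and FastQC 0.11.2. Settings of the peak caller, and how reads matching several places were handled, are not stated there. Each list holds, per the file headers, tag counts of the HA and WT library per peak, a peak score whose scale is not stated, fold enrichments over WT (ratios of scores and of tags) and a −log10 q-value, all deposited by the authors and used as they are. The authors assigned each peak a gene, a distance from the gene's start (read as measured from the peak's midpoint) and an annotation. Coordinates are 1-based.

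Every peak was kept. Peaks of both replicates, or of all lists fitted, were joined into a site where they shared 1 bp or more, and a site carries every gene assigned to its peaks. Log2 best scores per site, centred on each list's median, were fitted with limma 3.58.1 in R 4.3.3 across all sites in all lists compared, with Benjamini-Hochberg adjustment. Counts per list were compared by exact permutation. The analyses ran in Python 3.11.15 (numpy 2.4.6, pandas 2.3.3, scipy 1.17.1, matplotlib 3.10.9), and the merging and the fit were tested on simulated data. Symbols came from a RefSeq table of assembly TAIR10.1, which held all 44 genes.

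Per the labels, same-numbered libraries of a time share a WT control. Their deviations from the group means correlated over sites at 2 h (r = 0.53 for WRKY33-HA and WRKY18-HA, 0.57 for WRKY33-HA and WRKY40-HA, 0.81 for WRKY18-HA and WRKY40-HA) and between 2 h and 0 h of WRKY18-HA (r = 0.69), so the numbers were taken to pair the libraries.

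Named genes were the 8 members with the best mean rank per line at 2 h, those reproducible at 0 h, member sites past the limma threshold (up to 6 per direction), and reproducible genes of the wider lists (up to 6 per list). Other members were named to account for every gene, after their values were seen. The members and the 6 wider lists were chosen with earlier results of these data known. No genome sequence was used, so motifs in the peaks were not examined. The limma p-values rest on a spread pooled over groups of 2 biological replicates each and moderated over sites. Without the replicate block they treat same-numbered libraries as independent. Permutation p-values count arrangements of the labels.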

Additional observations from a re-analysis of the deposited data

How the results depend on the processing

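Peaks scored under 9.999 are not listed, and many member peaks lay close to that limit. Keeping the better-scoring 50% of each list left 8 reproducible members in WRKY33-HA, 8 in WRKY18-HA and 11 in WRKY40-HA at 2 h, and 1 in WRKY18-HA at 0 h. Reproducible genes of any kind fell as well, in the same order to 583, 675, 780 and 108, from 1192, 1365, 1555 and 220. At an equal list length of 1653 peaks WRKY33-HA had 15, WRKY18-HA 13 and WRKY40-HA 15, beside 969, 1008 and 1064 of all genes, so WRKY18-HA no longer had the most. With a single replicate list in place of both, members numbered 22 to 27 in WRKY33-HA, 24 to 28 in WRKY18-HA and 17 to 32 in WRKY40-HA at 2 h, and 5 to 14 in WRKY18-HA at 0 h. The counts by time and the shares by line kept their direction under the alternatives that give a test. For the shares by line, the smallest possible exact permutation p was 0.0667, and 0.111 with the replicate block. The shares could therefore not pass the threshold under any setting. The counts by time passed it in each tested setting, each time at the smallest exact permutation p possible (0.00926 to 0.0312). Membership required a peak and the 0 h lists were shorter, so none of these settings separates a gain at members from longer lists. Equal list lengths were not tried for the counts by time. With the replicate block, the share of members by line gave an exact permutation p = 0.889.

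In limma, WRKY33-HA over WRKY18-HA called 37 sites (21 higher, 16 lower), 245 with the replicate block, and 0 to 55 when a library was left out, with 0 to 1 member sites among them. It called 1 site without WRKY33-HA replicate 1 and 0 without WRKY33-HA replicate 2. Without centring it called 2 higher and 34 lower, with a median shift of -0.35. WRKY33-HA over WRKY40-HA called 47 sites (26 higher, 21 lower), 244 with the replicate block, 89 without centring (2 higher, 87 lower, median shift -0.53), 91 over sites in the 4 lists compared, and 0 to 67 when a library was left out, with 0 to 1 member sites. Member sites called numbered 3 with the replicate block in both contrasts, and 1 without centring, 1 over the 4 lists, and 1 with tag fold enrichment for WRKY33-HA over WRKY40-HA. AT1G51805 was that site, except under tag fold enrichment, where it was the AT1G72460 site. WRKY18-HA at 2 h over 0 h called 53 sites with the replicate block, 1 at a member. The cause of these changes was not tested.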

Other observations

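At 2 h the replicate 2 lists were longer than the replicate 1 lists, and scores of the same member differed between them. Over members reproducible at 2 h, the median log2 ratio of replicate 2 over replicate 1 was 0.28 in WRKY33-HA (18 genes, -0.47 to 1.26), 0.14 in WRKY18-HA (20 genes, -0.96 to 1.78) and 0.34 in WRKY40-HA (17 genes, -0.44 to 1.35).

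By number of 2 h lists with a peak, 10 members were in all 6 lists and 11 in a single one, beside 600 genes (13.9%) in all 6 and 1124 (26.0%) in a single one among all 4317.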
